A study of Zea mays with 6 samples.

Results

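The 3 RAMOSA genes of maize, ra1, ra2 and ra3, were examined in the tassel meristem of the tassel-less1 (tls1) mutant. They were taken from the 45953 features of the count table by identifier, as Zm00001d020430 (ra1), Zm00001d039694 (ra2) and Zm00001d022193 (ra3), so all 3 are reported whatever their values. Poly-A RNA was sequenced from meristems of 1 mm in length, in 3 libraries of WT plants of the cultivar B73 and 3 libraries of tls1 plants, for which the labels also give B73 as the cultivar. All plants were grown in a greenhouse without further treatment, on a feed of 238 ppm nitrogen that supplied 0.08 ppm boron. The labels call tls1 boron deficient, and by the series' design the tissue was taken before the mutant tassels differed in form. The comparison asked which transcripts differed at that early stage.

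RAMOSA genes control the branching of maize inflorescences. In the young tassel, axillary meristems either grow out as long branches or form short branches that carry a pair of spikelets, and loss of a RAMOSA gene turns spikelet pairs into long branches. ra1 encodes a zinc finger transcription factor of the EPF type, ra2 a transcription factor with a LATERAL ORGAN BOUNDARIES domain, and ra3 a trehalose 6-phosphate phosphatase. Genetically, ra2 and ra3 act upstream of ra1. ra2 marks the sites where axillary meristems will form, and ra3 is expressed at the base of these meristems.

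The libraries were deep and alike in depth, with between 72498318 and 77619452 counted reads each. A count of 3 in 1 library corresponded to between 0.0387 and 0.0414 CPM (counts per 1000000 counted reads of a library), the unit used for levels. Each replicate number occurs once in each genotype, and a WT and a tls1 library of the same number are called a pair. The reference table of gene names contained none of the 43789 nuclear identifiers of the count table. The identity of the 3 genes therefore rests on the identifiers by which they were selected and could not be checked against it. Of 26 other symbols listed for inflorescence and meristem genes, among them rel2, ub2, ub3, kn1 and bd1, 21 were in the reference table. Of the 26, 0 could be paired with a row. Those genes, the meristem markers and the mutated gene are not analysed here. Plastid genes could be paired, and rbcL had from 0.0134 to 0.0669 CPM and psaA from 0.779 to 2.63 CPM over the 6 libraries. Plastid transcripts are mostly not polyadenylated, so in poly-A libraries these levels do not measure how much green tissue was present.

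At this stage ra1 was at the limit of detection, ra2 was expressed at a few CPM and varied more between pairs than between genotypes, and ra3 was lower in every tls1 library than in every WT library, as were 11.2% of the tested genes. The difference in ra3 was close to 2-fold, but it did not pass the threshold after adjustment over all genes. Of the 3 genes, ra2 and ra3 passed the filter on low counts and ra1 did not. edgeR called 0 of these 2 at an adjusted p under 0.05, without or with the replicate number as a block, and DESeq2 and limma-voom also called 0. At an unadjusted p under 0.05, ra3 was among the genes lower in tls1. Over the 23349 genes tested, edgeR without the block called 0.00428% higher (1 gene) and 0% lower in tls1, and with the block 0.493% higher and 0.201% lower. DESeq2 without the block called 2.92% higher and 2.44% lower. Before adjustment, p was under 0.05 in edgeR without the block for 7.33% of the genes on the higher side and 9.22% on the lower side.

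**Figure D1:**
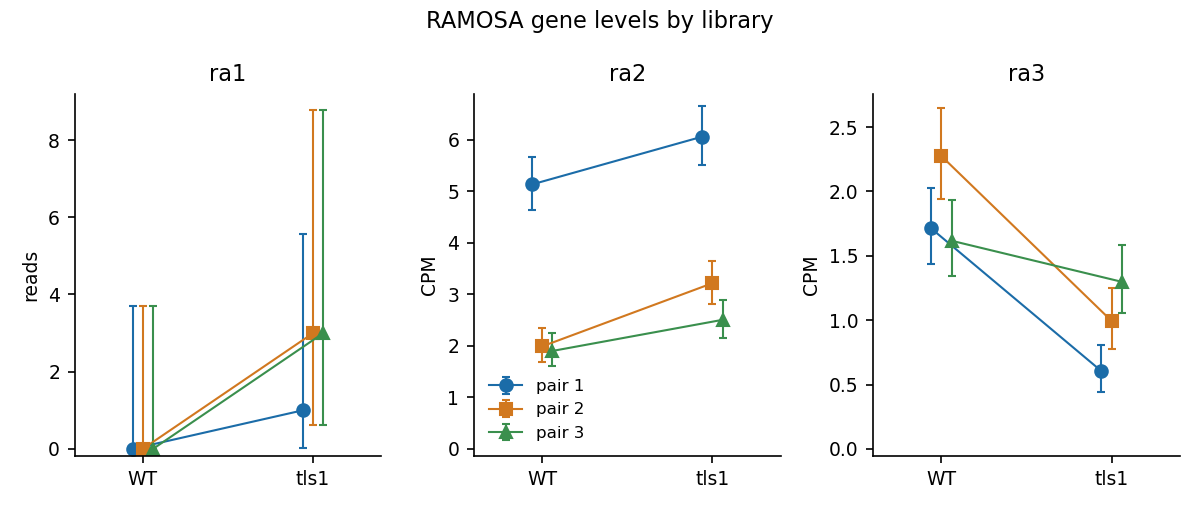
Levels of ra1 (reads per library), ra2 and ra3 (CPM) in WT and tls1, with a line joining the libraries of the same replicate number and bars for the exact 95% Poisson interval of each count. ra1 had 0 reads in each WT library and at most 3 in a tls1 library, the ra2 lines of all pairs slope up with pair 1 far above the others, and the ra3 lines of all pairs slope down.

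ra1, which acts last of the 3 in the pathway, had 0 reads in WT 1, WT 2 and WT 3, and 1, 3 and 3 reads in tls1 1, tls1 2 and tls1 3. The groups did not overlap, but no library exceeded 3 reads, the floor used here, so no fold change is given. ra1 had 0 of the 224933617 reads counted in WT, where the floor of 3 counts over the 3 libraries corresponded to 0.0133 CPM. The 7 reads among 222691925 in tls1 corresponded to a mean of 0.0315 ± 0.0156 CPM (SD, n = 3). For the pooled reads, the exact 95% Poisson interval ran from 0 to 0.0164 CPM in WT and from 0.0126 to 0.0648 CPM in tls1, counting error only. The exact permutation test of the CPM gave p = 0.1, 2-sided, the smallest value that 3 against 3 libraries allow. Such a pattern was uncommon but not particular to ra1. Of the 343 features with 7 reads in all, 2.92% (10 features) had 0 reads in WT and at least 1 in each tls1 library. The converse was found in 2.04% (7 features). Over all 45953 features these shares were 0.183% and 0.137%. A difference in ra1 was not measurable at this depth. In bulk tissue, fewer cells that express a gene and less RNA per cell cannot be told apart, which applies to ra2 and ra3 as well.

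ra2, the LATERAL ORGAN BOUNDARIES domain gene that acts early in the pathway, had 5.13, 1.99 and 1.90 CPM in WT 1, WT 2 and WT 3. In tls1 1, tls1 2 and tls1 3 it had 6.05, 3.21 and 2.50 CPM. Both libraries of pair 1 were above all others, and the genotypes overlapped because WT 1 exceeded tls1 2 and tls1 3. The WT libraries averaged 3.00 ± 1.84 CPM (SD, n = 3) and the tls1 libraries 3.92 ± 1.88 CPM (SD, n = 3). The log2 fold change, tls1 over WT, was 0.36 ± 0.50 (SE), with an edgeR adjusted p of 0.759. The unadjusted 95% interval of that fold change, without the replicate block, ran from -0.85 to 1.57 on the log2 scale. It left room for a change of more than 2-fold upwards. The exact permutation test of the CPM gave p = 0.5 (n = 3 each, 2-sided).

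Within each pair, ra2 was nonetheless higher in tls1. The level was 1.18-fold higher in pair 1, 1.62-fold in pair 2 and 1.32-fold in pair 3. On the log2 scale these differences were 0.24, 0.69 and 0.40, and the exact 95% intervals of the read counts, which cover counting error only, ran from 0.04 to 0.44, from 0.39 to 1.00 and from 0.08 to 0.72. A higher level in 3 of 3 pairs was shared by 24.6% of the tested genes, so it does not set ra2 apart. With the replicate number as a block, the log2 fold change of ra2 was 0.42 ± 0.20 (SE) and the edgeR adjusted p was 0.302. The unadjusted 95% interval with the block was narrower, from -0.06 to 0.91 on the log2 scale, and did not reach 2-fold. The exact sign-flip p of ra2 was 0.25, the smallest that 3 pairs allow, which follows once every pair has the same sign. The same holds for ra3. The estimate without the block depended on single libraries: leaving out WT 1, WT 2 or WT 3 gave 1.00, 0.14 and 0.12, and leaving out tls1 1, tls1 2 or tls1 3 gave -0.09, 0.49 and 0.59. The edgeR adjusted p of these fits ran from 0.566 to 0.975.

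The spread of ra2 among libraries of 1 genotype was large for its level. Its highest WT level was 2.70 times its lowest, a ratio reached by 8.93% of the tested genes, and in tls1 the ratio was 2.42. The SD of its log2 level within a genotype, 0.74, was larger than that of 91.4% of the 770 tested genes whose mean log2 CPM lay within 0.25 of its own, where the median was 0.32. Both libraries of a pair lay above the other 4 in 5.71% of the tested genes for pair 1, as for ra2. Of the 20 tested nuclear genes nearest to ra2 in the row order of the table, 5 also had this pattern. The reverse, both libraries of pair 1 below the other 4, was found in 3 of the 20 and in 5.13% of all tested genes. The biological coefficient of variation of ra2 was 0.465 without the block and 0.204 with it, where the common value over all genes was 0.272 and 0.165.

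**Figure D2:**
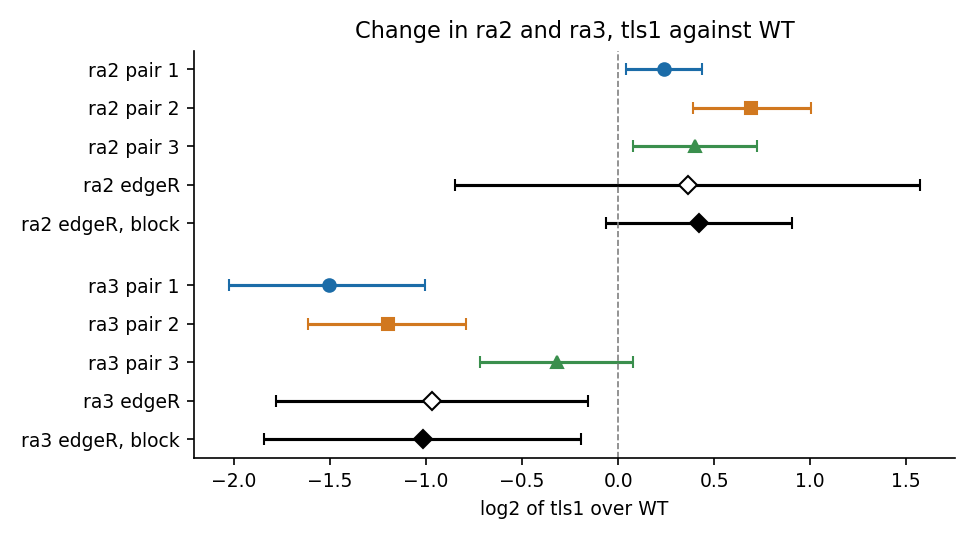
Log2 of the tls1 over the WT level of ra2 and ra3 within each pair (coloured points, exact 95% intervals for counting error) and as estimated by edgeR without and with the replicate block (open and filled diamonds, unadjusted 95% intervals). All pair values of ra2 lie above 0, between 0.24 and 0.69, and all those of ra3 lie below 0, between -1.50 and -0.32.

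ra3, the trehalose 6-phosphate phosphatase, had 1.71, 2.28 and 1.62 CPM in WT 1, WT 2 and WT 3, from 133, 165 and 121 reads. In tls1 1, tls1 2 and tls1 3 it had 0.604, 0.994 and 1.30 CPM, from 45, 73 and 97 reads. The genotypes did not overlap, but the lowest WT level, in WT 3, was close to the highest tls1 level, in tls1 3, and their exact 95% Poisson intervals (1.34 to 1.93 and 1.05 to 1.58 CPM) did overlap. The WT libraries averaged 1.87 ± 0.36 CPM (SD, n = 3) and the tls1 libraries 0.965 ± 0.348 CPM (SD, n = 3), a level in tls1 of 0.516 times that in WT.  The exact permutation test gave p = 0.1 (n = 3 each, 2-sided), the smallest possible.

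Relative to WT, the log2 fold change of ra3 was -0.97 ± 0.34 (SE). The unadjusted edgeR p was 0.0260 and the adjusted p 0.242. The unadjusted 95% interval of the fold change ran from -1.78 to -0.16 on the log2 scale. With the replicate block the estimate was -1.02 ± 0.33 (SE), with an edgeR adjusted p of 0.191. DESeq2 gave -0.96 ± 0.40 (SE, adjusted p = 0.146) and limma-voom -1.02 ± 0.33 (SE, adjusted p = 0.222). Over all tested genes the log2 fold change had a median of 0.01.

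The ra3 values of the pairs were not alike in size. The WT level was 2.84 times the tls1 level in pair 1, 2.29 times in pair 2 and 1.25 times in pair 3. On the log2 scale, tls1 over WT, the values were -1.50, -1.20 and -0.32. The exact 95% intervals of the read counts ran from -2.03 to -1.01 in pair 1, from -1.61 to -0.79 in pair 2 and from -0.72 to 0.08 in pair 3. The difference thus exceeded counting error in pairs 1 and 2 but not in pair 3. The interval of pair 3 did not overlap those of pairs 1 and 2. These intervals leave out the variation between libraries, and with 1 library of each genotype in a pair it was not tested whether the difference itself varied between pairs. A lower level in 3 of 3 pairs was found in 21.3% of the tested genes.

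ra3 was a weakly expressed gene in this tissue: 19.0% of the tested genes had a lower mean CPM. Among the 663 tested genes whose mean log2 CPM lay within 0.25 of that of ra3, log2 fold changes had a median size of 0.31. Counting both directions, 89.4% of these genes had a log2 fold change smaller in size than that of ra3, and 91.3% had a larger edgeR p. On the lower side alone, the side of ra3, 1.36% had a log2 fold change as low or lower. Its spread within a genotype was ordinary for that level, with an SD of the log2 level of 0.43 against a median of 0.43. Over all tested genes, 94.9% had a smaller log2 fold change in size and 89.3% a larger p. Of the 20 tested nuclear genes nearest to ra3 in the row order, 1 had all tls1 libraries below all WT libraries, against 11.2% of all tested genes, and 3 had all tls1 libraries above, against 11.3%. edgeR called 0 of the 20 without or with the block, and their log2 fold changes had a median of -0.04. The 1 that lay below was the row directly after ra3, Zm00001d022194, singled out after its values were seen. It had 16.6, 15.4 and 17.2 CPM in WT 1, 2 and 3 and 13.6, 11.4 and 12.7 CPM in tls1 1, 2 and 3, so it was lower in tls1 in every pair, as ra3 was. The log2 fold change of this gene, -0.40 ± 0.10 (SE), did not pass the threshold (edgeR adjusted p = 0.160). The row just before ra3 held between 0 and 11 reads in a library and was not tested. Near-identical copies and overlapping genes cannot be told apart from ra3 with certainty, because the sources used here do not give the counting rules or the strand setting.

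**Figure D3:**
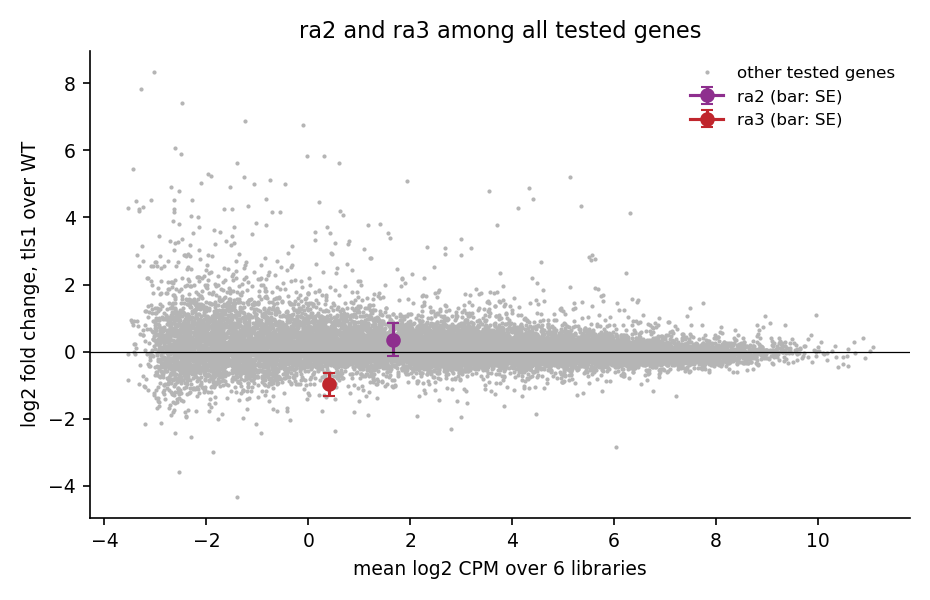
Log2 fold change, tls1 over WT, of each of the 23349 tested genes against its mean log2 CPM over the 6 libraries, with ra2 and ra3 marked (bars, SE). ra3 lies at -0.97, near the lower edge of the genes of its level, and ra2 at 0.36, within the main cloud.

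Within every pair ra2 was higher and ra3 lower in tls1, as the plot of ra2 against ra3 shows. For each 100 reads of ra2 there were 33.4, 115 and 85.2 reads of ra3 in WT 1, WT 2 and WT 3, and 9.98, 30.9 and 51.9 in tls1 1, tls1 2 and tls1 3. This ratio of reads does not depend on library depth. It is not corrected for gene length, so it compares libraries and not the levels of the genes with each other. It was lower in tls1 within each pair, by a log2 difference of -1.74, -1.89 and -0.72 in pairs 1, 2 and 3. That sign follows from the higher ra2 and lower ra3 of each pair and is not a separate result. The genotypes overlapped, since WT 1 lay below tls1 3. The log2 ratio averaged -0.54 ± 0.93 over the WT libraries (SD, n = 3) and -1.99 ± 1.22 over the tls1 libraries (SD, n = 3), a difference of -1.45 with an exact permutation p of 0.2 (2-sided, smallest possible 0.1). This test could not have passed 0.05 with 3 libraries a genotype and does not use the pairs, so it does not settle whether ra2 and ra3 differed in their response. Ratios with ra1 are not given, because ra1 had 0 reads in WT.

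**Figure D4:**
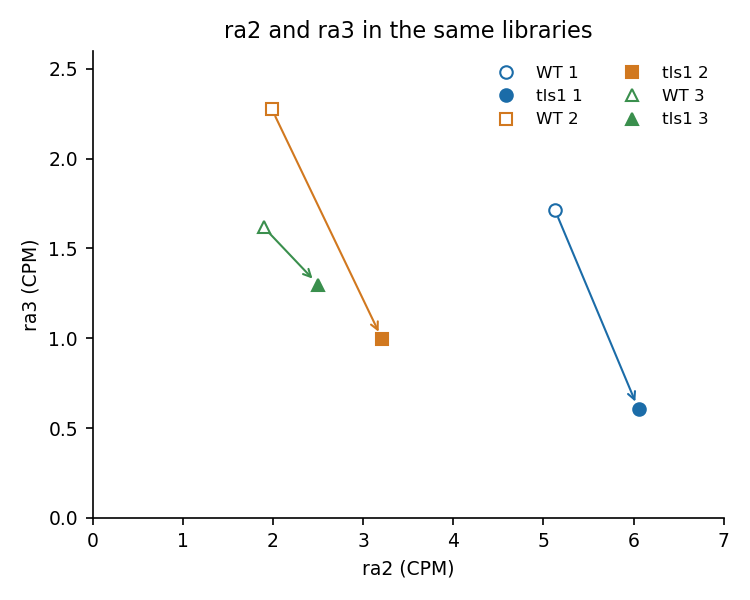
Level of ra3 against that of ra2 (both in CPM) in each library, with an arrow from the WT library (open) to the tls1 library (filled) of the same replicate number. Each arrow points to higher ra2 and lower ra3, from 1.90 and 1.62 CPM to 2.50 and 1.30 CPM in pair 3, the shortest, and pair 1 lies apart at ra2 levels above 5 CPM.

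The genes whose log2 CPM followed ra2 and ra3 most closely over the 6 libraries had smaller differences between libraries. For ra2 the closest of 23348 other tested genes was Zm00001d034779 (Pearson's r = 0.998 over 6 libraries, a description with no test), with 16.7, 13.8 and 13.8 CPM in WT 1, 2 and 3 and 17.6, 15.3 and 14.6 CPM in tls1 1, 2 and 3. For ra3 it was Zm00001d023630 (r = 0.993), with 61.8, 65.2 and 60.6 CPM in WT 1, 2 and 3 and 50.9, 54.5 and 58.0 CPM in tls1 1, 2 and 3. Zm00001d023630 ranked the 6 libraries in the same order as ra3, with a log2 fold change of -0.22 (edgeR adjusted p = 0.217). Zm00001d034779 ranked them as ra2 did except that WT 2 and WT 3 were exchanged, with a log2 fold change of 0.08 (edgeR adjusted p = 0.784). An r of at least 0.9 was reached by 198 genes for ra2 (0.848%) and by 376 genes for ra3 (1.61%). The sources used here give no names for these identifiers.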

How the data were processed

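RNA was measured in 3 WT and 3 tls1 libraries of tassel meristems. Per the submitters' processing notes, cutadapt and STAR were used. Their versions, the counter, the use of strand and the genome build are not stated in the sources used here. The authors deposited raw counts of reads per gene, not normalized, for 45953 features. CPM was computed as the count over the library's summed counts. The main test was the quasi-likelihood F test of edgeR 4.0.16 in R 4.3.3, with TMM factors, the filterByExpr filter, genotype alone in the model and Benjamini-Hochberg adjustment over the 23349 genes kept, with DESeq2 1.42.0 and limma 3.58.1 (voom) as alternatives. The SE of a log2 fold change was its size divided by the square root of F. Exact tests and intervals (95%) were computed in Python 3.11.15 with scipy 1.17.1. A count of 3 was taken as the floor. The exact intervals of read counts and the floors cover counting error only and treat reads as independent. Reads without molecular identifiers are not independent molecules, so these intervals may be too narrow even for counting error. The fits were also run on simulated counts, which had no replicate effect and a spread estimated with the replicate block. That setting differs from the data under the main fit, so it does not show how the main fit performs here.

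The members and lists were chosen with earlier results of these data known. The naming rule took the 3 members and, for each tested member, the gene with the highest Pearson correlation of log2 CPM (TMM factors, prior count of 2). The exact permutation tests of a gene's CPM, the comparison with genes of like level and the neighbours in row order were added after the data were seen. No label tells whether separate plants were used for each library, so p-values reflect the spread among these 6 libraries alone, which may be technical. The comparison within same-numbered pairs was part of the rule that selected the 3 genes, and no label states that the numbers are pairs. Deviations from the genotype means were correlated within each replicate number, WT against tls1, at 0.409, 0.594 and 0.652 for numbers 1, 2 and 3. Between different numbers the correlations ran from -0.479 to -0.102. Deviations within a genotype cancel out, so the signs of these values are not independent. No DNA or protein sequence of the 3 genes was used here.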

Additional observations from a re-analysis of the deposited data

How the results depend on the processing

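Neither ra2 nor ra3 was called in any of 18 alternatives each, with adjusted p from 0.302 to 0.975 for ra2 and from 0.146 to 0.559 for ra3. The log2 fold change of ra3 stayed below 0 in all of them, from -1.37 to -0.71, and from -1.25 to -0.71 without 1 library. That of ra2 ran from -0.09 to 1.00 without 1 library and was reversed, at -0.087, without tls1 replicate 1. With TMM factors the pair values kept their signs, at 0.22, 0.67 and 0.39 for ra2 and -1.53, -1.22 and -0.33 for ra3. The replicate block changed no call of a member: it gave 0.42 for ra2 and -1.02 for ra3, and with 1 pair left out, a choice made after seeing the data, from 0.30 to 0.54 for ra2 and -0.76, -0.91 and -1.37 for ra3 without pairs 1, 2 and 3. The difference in the log2 ratio of ra3 to ra2, -1.45, was -1.44 with 0.5 added to each count and from -1.97 to -0.78 without 1 library. Within pairs its mean was the same and the exact sign-flip p was 0.25, the smallest possible, which follows once every pair has the same sign. The planned ratios with ra1 could not be given, since ra1 had 0 reads in WT. Its fold change is left out, since ra1 did not pass the filter of the main fit and had 7 reads in all. With no filter, the unadjusted edgeR p of ra1 was 0.0389, on the side higher in tls1, and the adjusted p was 0.383.

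The number of genes called over the whole table, 1 with edgeR, was 13 with no filter, 2 with limma-voom, 1250 with DESeq2, 162 with the replicate block and 1633 with DESeq2 and the replicate block. Leaving out pair 1, 2 or 3 under the replicate block gave 433, 159 and 52, and without 1 library it ran from 0 to 9. The cause was not tested. At the depth of these libraries, ra1 lay at the detection floor. For ra3, counting error was comparable to the difference in pair 3.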
